A study of Mus musculus with 4 samples.

Results

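The genes described here are 10 effector genes of Th17 cells, the helper T cells named for interleukin 17: the cytokine genes Il17a, Il17f, Il21 and Il22, the receptor genes Il17re, Il23r, Il1r1 and Ccr6, and the membrane protein genes Tmem176a and Tmem176b. Every probe that the platform annotation assigns to one of these symbols was taken, which gave 16 probes of 45281 on the array. CD4+CD62L-CD44+ T cells, the phenotype of effector memory cells, had been sorted from spleen and lymph nodes and their total RNA hybridised to Illumina bead arrays. There were 2 arrays of dKO cells and 2 of WT cells, with replicate numbers 1 and 2 in each group. The dKO mice were C57BL/6 with the MEKK2 gene knocked out, 1 floxed and 1 null MEKK3 allele (MEKK3F/-) and the Lck-Cre transgene, whose promoter acts in T cells. MEKK2 is thus missing from all cells of these mice, and the null MEKK3 allele is carried by all of them too. The WT mice were C57BL/6, and nothing states that they carried the Cre. The labels give no age and name no animal for any array, so 2 arrays of a group may share their source, and the p-values below reflect only how far these arrays differ, which may be technical.

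Th17 cells form when a CD4 T cell receives TGF-beta together with inflammatory cytokines such as interleukin 6, which induce the transcription factors of the lineage. Interleukin 23 and interleukin 1, acting through Il23r and Il1r1, then sustain the programme. The cells release IL-17A, IL-17F, IL-21 and IL-22, which act on epithelium, neutrophil recruitment and other lymphocytes, and they follow the chemokine CCL20 into mucosa and inflamed tissue with the receptor CCR6. MEKK2 and MEKK3, products of Map3k2 and Map3k3, are kinases at the top of MAP kinase cascades, and the study's title places them in helper T cell differentiation driven by TGF-beta.

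The values are linear probe intensities after background subtraction, so that some lie below 0. An intensity of 16 was used as the floor below which values were not told apart. Of 1287 probes for olfactory receptors, genes that T cells are not known to use, 1 or 2 exceeded this floor on each array, and the 95th percentile of these probes lay between 7.64 and 9.59. A probe was tested if it exceeded the floor on at least 1 array, which 14673 probes did, and 9 of the 16 Th17 probes, from 7 of the 10 genes, were among them. The cells carried T cell transcripts on all 4 arrays, with Cd3d, a chain of the T cell receptor complex, at 3221 and 4565 on the dKO arrays and 3256 and 5923 on the WT arrays, and Cd4 at 151 and 84.4 on dKO against 105 and 141 on WT. The brightest probe of Cd44, a marker of the sort, read 813 and 858 on dKO arrays and 1110 and 1107 on WT arrays. The probe of the targeted Map3k3 read 204 and 246 in dKO cells against 311 and 387 in WT cells. Where it binds relative to the deleted exons is not given, and both Map3k2 probes were below the floor throughout, so neither checks the labels. The groups also differed in sex. The Xist probe read 2.96 and 1.10 on dKO arrays and 327 and 536 on WT arrays, while the Y-linked Eif2s3y was at 235 and 377 on dKO and below the floor on WT, so sex and genotype cannot be told apart in any result that follows.

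In dKO cells, compared with WT cells, the receptor genes Il17re and Ccr6 and the membrane protein genes Tmem176a and Tmem176b had higher intensities, by 1.75-fold to 2.95-fold, on all 6 of their tested probes and in both replicate numbers. The cytokine genes did not show such a separation above the floor. Il21 overlapped between the groups, and Il17f overlapped and was close to the floor. The deposited Il17a values were higher on both dKO arrays than on both WT arrays, but only dKO array 1 exceeded the floor. Il22, Il23r and Il1r1 never exceeded the floor. No Th17 probe passed the test over all probes (0 of 9), in which limma with Benjamini-Hochberg adjustment called 0% of the 14673 probes, 0 in either direction, and gave an adjusted p of 0.9999 for each of the 9. At an unadjusted p under 0.05 there were 480 probes in all, 228 higher in dKO (1.55%) and 252 lower (1.72%), and 4 of the 9 Th17 probes, all higher. The arrays are of sorted cells in bulk, and more cells that express a gene cannot be told apart from more RNA of it in each cell.

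**Figure D1:**
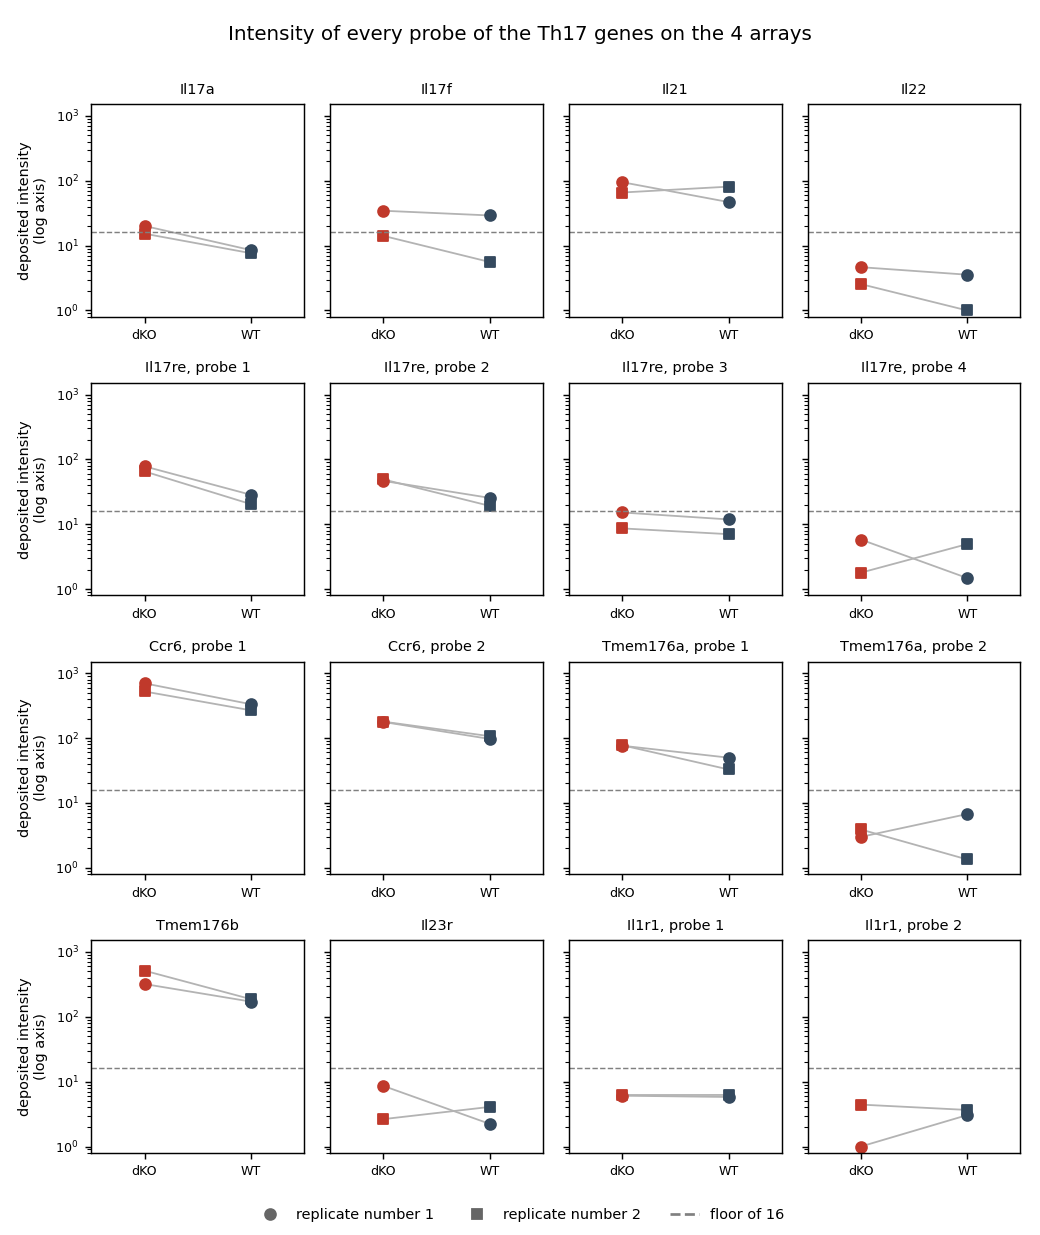
Deposited intensity of all 16 probes of the 10 Th17 genes on a logarithmic axis, for dKO and WT arrays, with lines joining the arrays of 1 replicate number (circles for number 1, squares for number 2). The dashed line is the floor of 16, and values under 1 are drawn at 1. Il17re probes 1 and 2, both Ccr6 probes, Tmem176a probe 1 and Tmem176b sit higher on both dKO arrays than on both WT arrays. Il17a does so as well, but only its dKO array 1 value is above the floor. On all 4 arrays, 7 probes stay below the floor.

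The surface receptor with the brightest probe was Ccr6, the homing receptor for CCL20. Its probe ILMN_2888448 read 699 and 523 on dKO arrays 1 and 2, against 332 and 268 on WT arrays 1 and 2. Both dKO arrays read above both WT arrays, and the dKO over WT ratio was 2.10 within number 1 and 1.95 within number 2. After quantile normalization of the 4 arrays, the log2 intensity of Ccr6 averaged 9.25 ± 0.61 in dKO cells and 8.24 ± 0.50 in WT cells (SD, n = 2 each), a log2 difference of 1.01 with a 95% interval from −0.07 to 2.09. The other Ccr6 probe, ILMN_2639012, read 177 and 179 on dKO against 97.0 and 107 on WT. Its groups did not overlap either, and its difference was 0.81 (95% interval 0.13 to 1.49). The probes are not independent, since they read the same 4 RNA samples.

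Il17re encodes a subunit of the receptor for IL-17C, which is made by epithelial cells. Of its 4 probes, ILMN_2634933 read 78.1 and 65.3 on dKO arrays, against 28.5 and 20.4 on WT arrays. These dKO values were 2.75 times the WT value in number 1 and 3.20 times in number 2, and the log2 difference of 1.56 (95% interval 0.50 to 2.62) ranked 49th from the top among the 14673 probes tested. ILMN_3163006 read 46.7 and 49.2 on dKO against 25.5 and 19.2 on WT, again without overlap, with a difference of 1.10 (95% interval 0.27 to 1.94). The WT readings of both Il17re probes, from 19.2 to 28.5, lay just above the floor, so the folds rest on a weak WT signal. The remaining Il17re probes stayed below the floor on every array. One of them, ILMN_3162860, which is annotated to a different transcript from the other 3, read 15.2 and 8.64 on dKO against 11.9 and 7.04 on WT.

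Tmem176a and Tmem176b encode related membrane proteins that are abundant in Th17 cells and type 3 innate lymphocytes and also in macrophages and dendritic cells. Tmem176b read 320 and 514 on dKO arrays, against 171 and 187 on WT arrays. Both dKO values exceeded both WT values, by ratios of 1.87 in number 1 and 2.75 in number 2. Its log2 intensity averaged 8.66 ± 0.18 in dKO cells and 7.49 ± 0.16 in WT cells (SD, n = 2 each), and the difference of 1.17 (95% interval 0.61 to 1.74) had the lowest unadjusted p of the 9 probes in limma (0.00352, adjusted p = 0.9999). The Tmem176a probe ILMN_2795412 read 76.4 and 77.7 on dKO against 49.9 and 32.9 on WT. Its groups did not overlap, with ratios of 1.53 and 2.36 in numbers 1 and 2, and its difference was 0.92 (95% interval −0.19 to 2.03). The second Tmem176a probe was below the floor throughout, at 1.35 to 6.76.

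The promoter windows of genes from this group are shown because the results turn on them: Ccr6 and Il17re as the receptors that were higher in dKO, Tmem176a as a neighbour of Tmem176b, and Il17a as the cytokine gene that gives the cells their name. Each window runs from 250 bases before to 50 bases after an annotated transcript start, 5′ to 3′ on the gene's strand, from RefSeq on GRCm38.p6. All 10 genes matched the table, with 15 windows. Capitals in the first 3 mark matches to AGGTCA (the half-site bound by ROR factors), TTCNNNGAA (STAT factors) or TGANTCA (AP-1, a target of MAP kinase cascades), searched on both strands. Capitals in the Tmem176a window mark instead the 208 bases it shares with a Tmem176b window.
Il17a, chr1:20730655-20730954, plus strand: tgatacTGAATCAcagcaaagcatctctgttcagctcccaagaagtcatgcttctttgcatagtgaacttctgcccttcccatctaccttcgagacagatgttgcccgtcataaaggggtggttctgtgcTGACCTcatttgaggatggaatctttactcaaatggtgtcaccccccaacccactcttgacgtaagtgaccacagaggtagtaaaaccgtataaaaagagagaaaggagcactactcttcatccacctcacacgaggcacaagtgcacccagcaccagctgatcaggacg
Ccr6, chr17:8235793-8236092, plus strand: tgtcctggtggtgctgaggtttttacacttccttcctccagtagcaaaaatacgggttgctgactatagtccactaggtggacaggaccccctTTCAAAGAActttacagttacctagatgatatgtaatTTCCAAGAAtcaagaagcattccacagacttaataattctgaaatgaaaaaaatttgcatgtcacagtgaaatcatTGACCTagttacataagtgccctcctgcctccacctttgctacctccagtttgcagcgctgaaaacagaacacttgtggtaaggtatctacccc
Il17re, chr6:113458521-113458820, plus strand: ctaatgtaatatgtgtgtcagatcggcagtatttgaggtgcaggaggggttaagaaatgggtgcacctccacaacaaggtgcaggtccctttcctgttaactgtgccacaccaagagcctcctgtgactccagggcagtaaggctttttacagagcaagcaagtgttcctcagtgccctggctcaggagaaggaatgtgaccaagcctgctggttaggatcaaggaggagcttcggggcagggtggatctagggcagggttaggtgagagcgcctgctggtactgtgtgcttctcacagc
Tmem176a, chr6:48841233-48841532, plus strand: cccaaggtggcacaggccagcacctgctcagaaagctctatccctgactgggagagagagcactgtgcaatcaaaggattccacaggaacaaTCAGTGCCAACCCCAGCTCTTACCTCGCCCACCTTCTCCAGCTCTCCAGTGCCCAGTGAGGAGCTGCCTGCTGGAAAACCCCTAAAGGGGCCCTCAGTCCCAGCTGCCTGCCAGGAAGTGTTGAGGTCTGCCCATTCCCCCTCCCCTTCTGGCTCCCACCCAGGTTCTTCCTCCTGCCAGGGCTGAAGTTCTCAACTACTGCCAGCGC
The ROR half-site was found in 4 of the 15 windows, 1 each of Il17a, Il17f, Il23r and Ccr6, and in 16.3% of all 32851 windows of the table. The Ccr6 window holds it 44 to 39 bases before the start, along with 2 STAT matches, which 8.30% of all windows hold at least once. The Il17a window holds the half-site 120 to 115 bases before the start. It also holds TGAATCA, a match to the letters TGANTCA searched for AP-1, with A at the open base. A match to TGANTCA is held by 7.81% of all windows. None of the letters searched occur in the windows of Il17re, Tmem176a or Tmem176b. Tmem176a and Tmem176b lie on opposite strands of chromosome 6, and the annotated Tmem176a span, 3882 bases, lies wholly within that of Tmem176b. The Tmem176b span thus extends beyond every start of these windows. The nearest pair of starts of these windows is 109 bases apart and points outward, and the farthest pair is 668 bases apart. These matches describe the letters and were not tested as binding sites.

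Among the cytokine genes, Il21, which encodes a cytokine that Th17 and follicular helper T cells release, was above the floor on all 4 arrays. It read 95.01 and 65.8 on dKO arrays, against 46.9 and 81.0 on WT arrays. The groups overlapped and the replicate numbers went opposite ways, with the dKO array at 2.03 times the WT array in number 1 and at 0.812 times in number 2. The difference over both was 0.38 with a 95% interval from −0.77 to 1.53, which spans changes in either direction.

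Il17a, the signature cytokine, read 20.1 and 15.3 on dKO arrays, against 8.51 and 7.63 on WT arrays. Only dKO array 1 exceeded the floor, and the WT values lay within the range of the olfactory receptor probes. The unfloored ratios were 2.36 in number 1 and 2.00 in number 2. Over values floored at 16 and normalized, the log2 difference was 0.21 (95% interval −0.25 to 0.66). This size depends on the floor, since a floor of 8 gave a log2 difference of 1.11.

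Il17f, its neighbour on chromosome 1 and partner in the IL-17A/F heterodimer, read 34.5 and 14.1 on dKO arrays, against 29.2 and 5.58 on WT arrays. Here the replicate number separated the arrays more than genotype did, with both arrays of number 1 above the floor and both of number 2 below it. The log2 difference was 0.13 (95% interval −1.32 to 1.57).

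Il22, whose product acts on epithelial barriers, read between −2.13 and 4.65 on its single probe. Il23r, the receptor subunit that confers response to interleukin 23, read 8.60 and 2.64 on dKO against 2.23 and 4.08 on WT. Il1r1, the signalling receptor for interleukin 1, had 2 probes between 0.77 and 6.24. These 4 probes lay at the level of the olfactory receptor probes on every array, and no difference was detectable for the 3 genes.

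**Figure D2:**
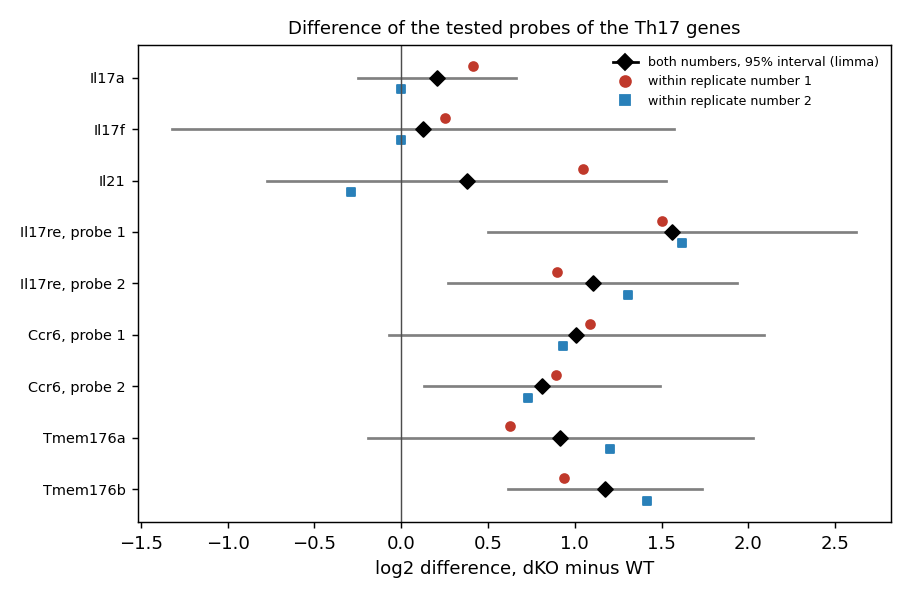
Log2 difference, dKO minus WT, of the 9 tested probes of the Th17 genes: diamonds with lines give the difference over both replicate numbers and its 95% interval from limma, circles the difference within number 1 and squares that within number 2. The probes of Il17re, Ccr6, Tmem176a and Tmem176b lie between 0.81 and 1.56, with both within-number values above 0, and Il21 has its within-number values on opposite sides of 0.

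Of the 9 tested Th17 probes, 6 were higher in dKO without overlap between the groups, at least 1.5-fold in each case, and 0 were lower. Among all probes tested, 11.9% were higher without overlap and 2.71% were so by at least 1.5-fold, while 3.29% were lower without overlap by as much. Both within-number differences were positive for the same 6 probes, and for 25.7% of all probes tested. The median log2 difference of the 9 probes was 0.92, with 0.90 in number 1 and 0.93 in number 2, beside −0.00 for all probes. These shares describe the list, whose members were chosen with earlier results of these arrays known, and 6 probes stand for 4 genes, 2 of which are neighbours.

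The dKO and WT arrays of a replicate number share nearly 1 distribution of deposited values, so their values were scaled together. The labels do not say whether they were prepared or hybridised together. With that number as a block in limma, which called 23 probes higher in dKO (0.157%) and 11 lower, none of the 9 Th17 probes passed. At an unadjusted p under 0.05 the block gave 6 of them, all higher, beside 5.69% of all probes, and the adjusted p values started at 0.0862 for Ccr6, 0.105 for Tmem176b and 0.108 for Il17re. On the authors' values without further normalization, the block called 0.245% of probes higher, among them the Ccr6 probe ILMN_2888448 (adjusted p = 0.0327 by limma) and Tmem176b (0.0433). Such fits leave 1 residual degree of freedom. With replicate number ignored, 2 arrays against 2 allow no two-sided exact permutation p below 0.333. Permutation within replicate numbers allows fewer splits, so its lowest p is higher still.

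The genes around these effectors in the Th17 pathway were read from 4 lists. Of their 43 genes, 41 had a probe and 29 were tested with 44 probes, of which 0 passed in limma in either direction. Without overlap, 6 probes were higher in dKO and 6 lower, beside 11.9% and 14.2% of all probes tested, and the median log2 difference was −0.03.

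Of the transcription factor genes, 10 were tested with 15 probes, with a median difference of 0.23, which was 0.44 in number 1 and 0.08 in number 2. Without overlap 2 probes were higher, beside 11.9% of all probes. Rora, a nuclear receptor that promotes Th17 differentiation, read 241 and 326 on dKO arrays, against 207 and 182 on WT arrays, a log2 difference of 0.52. The brighter Runx1 probe, for a factor with roles in T cell development and Th17 differentiation, differed by 0.40 without overlap. The first probes by p for Ikzf3 and Bhlhe40 differed by 0.75 each, with overlap, and the other 2 tested Ikzf3 probes by −0.35 and −0.10. Ahr, a ligand-activated factor that induces Il22, was below the floor.

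The receptors that receive the inducing cytokines had 18 tested probes from 9 genes, with a median of −0.16. Without overlap, 6 probes were lower, from Tyk2, Il6ra and Il12rb1, and 2 were higher, both from Il18r1, beside 14.2% lower and 11.9% higher among all probes. That median was 0.01 in number 1 and −0.45 in number 2. Il12rb1 encodes the chain that pairs with Il23r, and its leading probe read 42.0 and 37.0 on dKO arrays, against 61.3 and 73.6 on WT arrays, a difference of −0.76, while its second probe overlapped at −0.12. Il6ra, the interleukin 6 receptor, read 205 and 206 on dKO against 284 and 286 on WT, a difference of −0.47. Its other 2 tested probes differed by −0.46 and −0.59, the last with overlap. Tyk2, a kinase that signals below Il12rb1, differed by −0.98, −0.69 and −0.08 on its 3 tested probes. Il18r1, a receptor also found on Th1 cells, was higher on both probes, by 0.60 and 0.56. The TGF-beta receptor gene Tgfbr1 differed by −0.13, and Tgfbr2 by 0.10 and −0.22.

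Within the IL-17 family and its receptors, 4 of 9 genes were tested. Il17rc, a chain of the receptor for IL-17A and IL-17F, read 32.3 and 25.5 on dKO arrays on its first probe and was below the floor on both WT arrays, at 12.5 and 7.21, which makes it at least 1.81-fold higher in dKO. Its second tested probe was above the floor on dKO array 1 alone. Il17ra, the chain shared by most IL-17 receptors, differed by −0.39 and Il17rb by −0.64, both with overlap, and the ligand genes Il17b, Il17c, Il17d and Il25 were below the floor.

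Among other genes tied to Th17 cells, Ltb4r1, a receptor for the chemoattractant leukotriene B4, read 121 and 323 on dKO arrays, against 35.2 and 32.1 on WT arrays. Its difference of 2.54 exceeded that of every Th17 probe above, and it was the only 1 of 6 probes in that list without overlap. With the block on the authors' values it was called as well (adjusted p = 0.0288 by limma). Ccr4 and Il10ra differed by 0.65 and −0.41 with overlap, and Csf2 was above the floor on dKO array 2 alone, at 23.3.

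**Figure D3:**
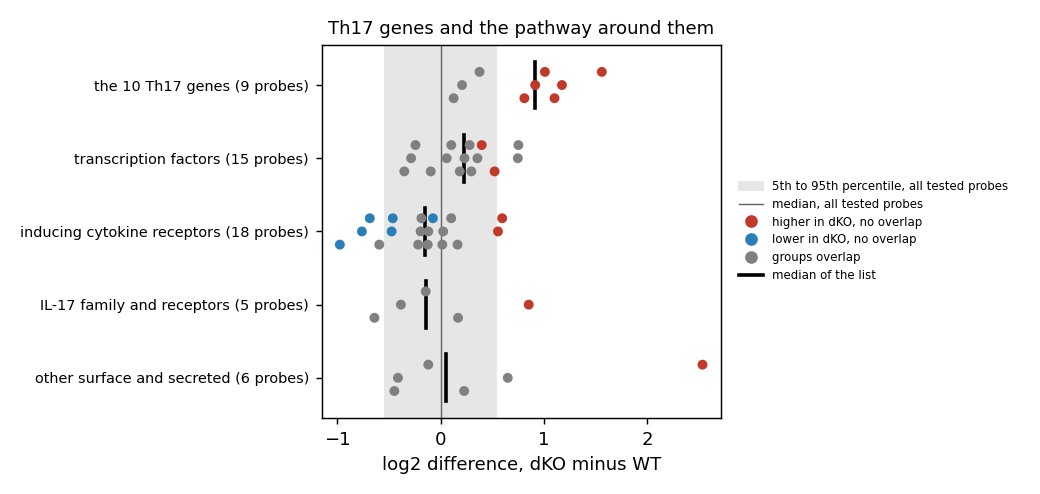
Log2 difference, dKO minus WT, of each tested probe of the Th17 genes and of 4 lists of the surrounding pathway, with the median of each list as a black bar. Red and blue points are probes higher or lower in dKO without overlap, grey points overlap, and the shaded band runs from the 5th to the 95th percentile of all tested probes (−0.54 to 0.54). The Th17 genes have a median of 0.92, and the lists have medians from −0.16 to 0.23.

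Several other cell types use the same effector genes, and their markers were measured beside them. Of 19 macrophage, monocyte and dendritic cell genes, 13 were tested with 19 probes, 7 higher in dKO and 3 lower without overlap. Among all probes tested 11.9% were higher and 14.2% lower without overlap, and the counts of the other cell types that follow stand beside the same shares. Their summed intensity, over 1 probe a gene, was 1228 and 3923 on dKO arrays 1 and 2, against 1547 and 1454 on WT arrays 1 and 2, so that dKO array 2 stood apart. Adgre1, which encodes the macrophage antigen F4/80, differed by 1.73 and 1.27 on its 2 tested probes, and Csf1r by 1.00. Clec4n was at least 2.60-fold higher in dKO, with both WT arrays below the floor. Clec9a, a dendritic cell marker, was at least 1.58-fold lower in dKO, with both dKO arrays below it. Siglech, from the same list, differed by −1.77 and −1.75 on its tested probes, both without overlap. Fcgr1, Flt3, Itgax and Xcr1 were below the floor. Within number 1, where the summed intensity was lower in dKO, the dKO over WT ratio was 2.28 and 1.78 for the Adgre1 probes, 1.53 for Csf1r and 0.870 for the brightest Lyz1 probe, the lysozyme transcript that makes up much of the sum.

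Type 3 innate lymphocytes and lymphoid tissue inducer cells, which can carry CD4, had 9 of 13 marker genes tested with 19 probes, 3 higher and 1 lower without overlap. Their sums were 4865 and 4555 on dKO arrays, against 4644 and 5242 on WT arrays, and the median difference was 0.11. Kit differed by 0.71 without overlap. Id2 differed by 0.42, 0.24 and −0.19 on its 3 tested probes, the first without overlap. Ltb differed by −0.25 without overlap and Lta by 0.34 and −0.26 with overlap, while Arg1 and Ncr1 were below the floor. Of the genes tested, Il7r, Lta, Ltb, Nrp1, Cxcr5, Tox, Id2 and Tnfsf11 are known from CD4 T cells as well.

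Gamma delta T cells that make IL-17 had 6 of 12 genes with a probe and 4 tested with 5 probes. Cd163l1, a scavenger receptor of these cells, read 150 and 78.7 on dKO arrays, against 21.1 and 22.3 on WT arrays, a difference of 2.34. Trgv4, a variable segment of the gamma chain, was lower in dKO, with 1.83 and 30.7 on dKO against 157 and 161 on WT. With the replicate block it was the 1 probe of that list called by limma (adjusted p = 0.0441). The sums were 195 and 190 on dKO arrays, against 231 and 238 on WT arrays, while the median log2 difference of the tested probes was 0.39. Sox13 and Trgv6 were below the floor. NKT markers summed to 644 and 635 on dKO against 1080 and 1333 on WT, with 4 of 9 tested probes lower without overlap, from Klrb1c, Cd160 and Klrk1. Much of the gap between these sums lay in Cd160, at 257 and 211 on dKO against 606 and 948 on WT. From the same list, Slamf6 differed by 0.29, Slamf1 by 0.23 and 0.17, and Cxcr6 by −0.12, all with overlap. Zbtb16, the defining factor of NKT cells, was below the floor. CD8 T cell and NK cell markers summed to 1466 and 1811 on dKO against 2646 and 2746 on WT, with 4 of 9 probes lower without overlap, from Klra3, Ctsw, Klre1 and Klrd1. Much of that gap lay in Ctsw, at 449 and 772 on dKO against 1151 and 1414 on WT. The CD8 chain gene Cd8b1 differed by −0.64, −0.52 and −0.16 on its tested probes, all with overlap, the last being its brightest. Cd8a was below the floor. B cell markers summed to 57.6 and 304 on dKO against 132 and 146 on WT, with Blnk and Cd79b as the 2 genes tested and 0 probes without overlap. The part of these cell types in the Th17 differences was not tested.

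**Figure D4:**
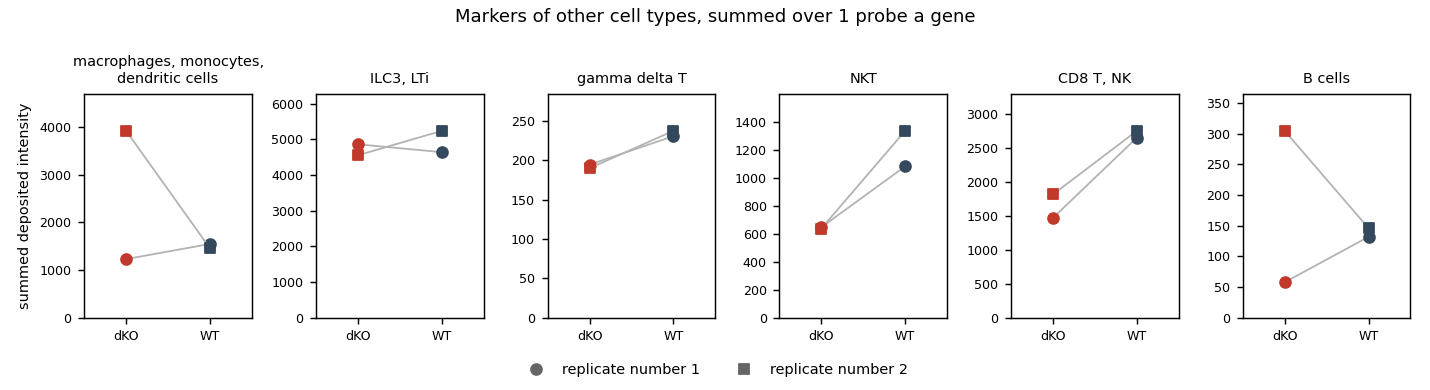
Summed deposited intensity of marker genes of 6 other cell types, over 1 probe a gene with negative values set to 0, on dKO and WT arrays of replicate numbers 1 (circles) and 2 (squares). The myeloid sum was 3923 on dKO array 2 and between 1228 and 1547 on the other arrays. The NKT, CD8 and NK, and gamma delta sums were lower on both dKO arrays than on both WT arrays. Much of the gap lay in Cd160 for the NKT sum and in Ctsw for the CD8 and NK sum. The tested gamma delta probes had a median log2 difference of 0.39, opposite in direction to their sum.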

How the data were processed

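Sorted CD4+CD62L-CD44+ cells gave 4 Illumina bead arrays, 2 dKO and 2 WT, grouped by their titles. The deposited values are linear probe intensities, background-subtracted as their negative values show. The software and settings behind them are not given in the sources used here. Sorted intensities of the 2 arrays of a number differed by at most 0.0846 (number 1) and 0.0793 (number 2), and by up to 6979 between numbers. A second table, with 4 signal and 4 detection columns, was not used because its column names match no sample's labels. Between 12763 and 13218 probes of an array exceeded the floor, and the number of arrays limits the precision.

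Intensities under 16 were set to 16, logged to base 2 and brought to 1 distribution by quantile normalization. The 14673 probes above the floor on at least 1 array were tested one by one, and 30608 were not. Genotype alone was fitted with lmFit and a trended eBayes (limma 3.58.1, R 4.3.3), and two-sided p-values were adjusted by Benjamini-Hochberg over the tested probes, at a threshold of 0.05. The code was tested on simulated data. Where both arrays of a group were below the floor, a fold was computed from the other group's normalized log2 mean against the floor and written as "at least". The platform annotation named 34885 probes by 1 symbol, 18 by several and 10378 by none, and Entrez IDs matched 34807 to RefSeq on GRCm38.p6.

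Arrays of the same number deviated together from their group means (correlation 0.519). The labels name no pairing, so the replicate block was an alternative. The Th17 genes and the lists were chosen with earlier results of these data known. Named are all Th17 probes, the targeted kinases, sex-linked and sort markers, and up to 4 genes of each list by unadjusted p. Genes below the floor, further probes of a named gene, Cd3d, Tgfbr1, Tgfbr2, Lyz1, Siglech, Slamf1, Cxcr6 and Cd8b1 are given as context. These were chosen after their values were seen. Alternatives covered the floor, a pseudocount, normalization, filters, 1 value a gene, the variance model, the replicate block and each array left out.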

Additional observations from a re-analysis of the deposited data

How the results depend on the processing

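Under 18 alternatives, all planned, the 6 probes of Il17re, Ccr6, Tmem176a and Tmem176b stayed higher in dKO wherever they were tested. Without a replicate block and with all 4 arrays, limma called 0 Th17 probes in each of 11 fits, and over all probes it called 3 higher and 2 lower with log2(signal + 16), 5 and 4 with medians equalized, and 0 and 0 in the other 9. The replicate block called 23 and 11, or 11 and 6 without trend, with 0 Th17 probes. On the authors' values it called 36 and 34, with 2 Th17 probes and 1 pathway probe, Ltb4r1, all higher. With an array left out, the lone array of a group being assumed to vary like the other group, limma called 0 probes. Then the difference of Il17f ran from −0.50 to 0.72, below 0 without dKO 1 (−0.50) and without WT 2 (−0.34). That of Il21 ran from −0.034 to 0.78, below 0 without dKO 1 (−0.034), and that of the brighter Ccr6 probe from 0.58 without dKO 1 to 1.43 without dKO 2. Tmem176a ran from 0.49 without WT 2 to 1.35 without WT 1, and Tmem176b from 1.03 to 1.32. The Il17re probe ILMN_3163006 differed by 0.58 with a floor of 32, against 1.10 with the floor of 16. Of 154 values of Th17 probes under alternatives, 3 changed sign and 2 were called; the cause was not tested. The fit without a filter on low values could not be fitted with a trend, because most residual variances were exactly 0. Intensities below 16 set the limit for Il17a, Il17f, Il22, Il23r and Il1r1.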
